A study of Mus musculus with 4 samples.

Results

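The cells described here carry RNA of at least 3 of 5 genes used as markers of early T cells and gamma-delta T cells: Bcl11b, Cd3e, Trdc, Tcrg-C4 and Icos. A barcode was taken when it held 500 genes or more, no more than 10% of its UMIs (each a counted RNA molecule) from mitochondrial genes, at least 1 UMI of 3 or more of the 5 markers, and no UMI of Cxcr5, the chemokine receptor gene of lymphoid tissue inducer (LTi) cells. This gave 263 of 31153 barcodes that passed the gene and mitochondrial limits. They are called the selected cells, because the values below go against the name of early T or gamma-delta T cell for many of them.

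The study followed how LTi cells arise before birth, by single-cell RNA sequencing of sorted blood cells from C57BL/6J mouse embryos, for which the labels name no mutation and no treatment. Each embryo sample was enriched for CD45, the common surface protein of blood cells, and viable cells with surface IL7Ra and CD45 but without the macrophage protein F4/80 were then sorted. There were 4 libraries: fetal liver, and what the labels call embryonic periphery, were each taken at E13.5 and again at E14.5, where E counts days of embryonic development. Fetal liver was prepared with version 3 and periphery with version 2 of the 10x Genomics 3' kit, so tissue and kit cannot be told apart and the tissues are only set side by side. The number of embryos behind a library is not given in the sources used here. With 1 library per group no value has a replicate check and no test was made: every comparison describes these 4 libraries, and intervals in parentheses cover counting error only. Where 4 values are listed, they follow the order fetal liver E13.5, fetal liver E14.5, periphery E13.5 and periphery E14.5.

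T cells recognise antigen through a receptor of paired chains, alpha with beta or gamma with delta, that reaches the surface only together with the CD3 chains. The receptor genes are assembled from V, D and J segments by the Rag1 and Rag2 recombinase, normally in the thymus, and the constant-region genes are also transcribed in unrearranged form in lymphoid progenitors and innate lymphocytes. Bcl11b, Gata3 and Tcf7 encode factors of T cell commitment, and all are also used by innate lymphoid cells, above all by group 2 innate lymphoid cells, which make type 2 cytokines such as IL-13.

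Fetal liver gave 23 selected cells at E13.5, or 0.216% of the barcodes that passed (exact Clopper-Pearson interval 0.137 to 0.324%), and 118 at E14.5, or 1.01% (0.835 to 1.21%). Periphery gave 50 cells at E13.5, or 1.16% (0.863 to 1.53%), and 72 at E14.5, or 1.60% (1.25 to 2.01%). The share was thus higher at E14.5 in fetal liver beyond counting error, while the intervals of periphery overlapped. For equal depth, barcodes were thinned to 5000 UMIs, and 390, 769, 333 and 480 shallower barcodes were left out, of which 1, 0, 0 and 6 were selected cells. The shares were then 0.0878% (0.0402 to 0.167%), 0.549% (0.419 to 0.706%), 0.629% (0.408 to 0.928%) and 0.944% (0.669 to 1.29%), in the same order of size within each tissue. Barcodes just outside the rule, with exactly 2 markers and no Cxcr5 UMI, numbered 33, 91, 76 and 71, while those with 3 or more markers and a Cxcr5 UMI numbered 2, 3, 3 and 8. Just inside, with exactly 3 markers, stood 17, 83, 35 and 50 of the selected cells.

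Bcl11b, which encodes a zinc finger factor of T cell and group 2 innate lymphoid fate, stood at 171 (133 to 217), 313 (288 to 339), 114 (91.4 to 140.0) and 166 (141 to 193) CPM (a gene's part of the summed UMIs of the cells, scaled to the same total for every set) in the selected cells. Tcrg-C4, a constant gene of the gamma chain at chr13:19344558-19352756, stood at 147 (112 to 189), 310.1 (286 to 336), 355 (315 to 399.7) and 384 (346 to 424) CPM. Icos, the gene of a costimulatory receptor at chr1:60977927-61000320, stood at 241 (195 to 294), 603 (569 to 639), 381 (339 to 427) and 598 (551 to 648) CPM. Cd3e, which encodes the epsilon chain of CD3, was lower at 14.9 (5.47 to 32.4), 23.6 (17.2 to 31.6), 30.7 (19.7 to 45.6) and 115 (94.97 to 138) CPM, and Trdc, the only constant gene of the delta chain, stood at 34.8 (19.02 to 58.4), 27.3 (20.4 to 35.8), 17.9 (9.78 to 30.03) and 65.6 (50.7 to 83.7) CPM. These 5 genes chose the cells, so their levels are a description. Gene positions are those of GENCODE M21 on mm10, and the levels of different genes are on one scale of 3' UMIs that needs no correction for length, though 3' capture can differ between genes.

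Bcl11b, Tcrg-C4 and Icos were detected together in more of the selected cells than either Cd3e or Trdc was. Bcl11b, Tcrg-C4 and Icos without Cd3e or Trdc made up 127 of the 263 cells (48.3%), with 8, 60, 26 and 33 in the 4 libraries. Trdc joined these 3 markers in 32 cells, Cd3e joined them in 28, and all 5 markers were found in 12 cells. Bcl11b, Cd3e and Trdc without Tcrg-C4 and Icos were found in 10 cells, of which 7 came from periphery at E14.5. Cd3e was detected in 5, 33, 16 and 28 cells and Trdc in 11, 35, 12 and 25 cells, so most cells of each library lacked a UMI of Cd3e.

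**Figure D1:**
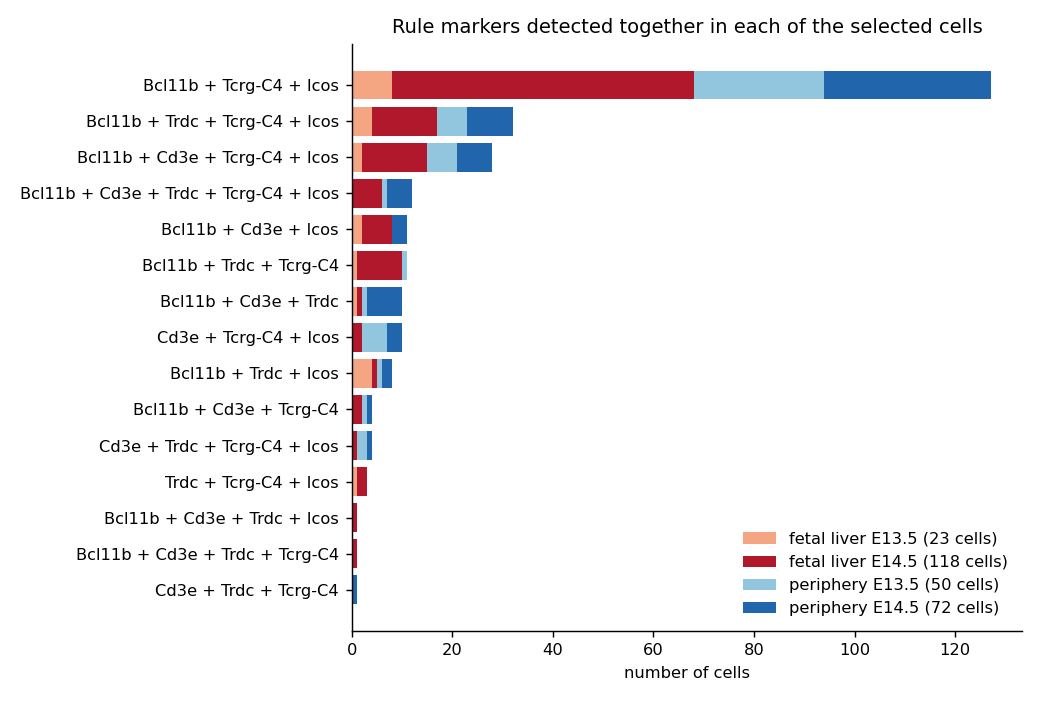
Number of selected cells (x axis) for each combination of the 5 rule markers (y axis), stacked by library. The combination of Bcl11b, Tcrg-C4 and Icos without Cd3e or Trdc holds 127 cells, and every other combination holds 32 or fewer.

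Depth was unlike between libraries. The deposited matrices held 212034840 and 208229937 UMIs for fetal liver and 53229734 and 44599592 for periphery. The median selected cell held 13507, 14161.5, 14612.5 and 12909.5 UMIs, against 18694.5, 16250, 11134 and 8528 for the other barcodes, so selected cells were shallower than the rest in fetal liver and deeper in periphery. Their summed UMIs were 402458, 1905840, 782254 and 990150, so that 1 UMI equals 2.48, 0.525, 1.28 and 1.01 CPM. No barcode was selected in more than 1 library, while 27 barcodes that passed were shared between the fetal liver libraries and 30 between those of periphery.

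Other chains of CD3, which the rule did not use, set the selected cells apart from the remaining barcodes of their library, but unevenly. Cd3g, which encodes the gamma chain, stood at 462 (398 to 534), 378 (351 to 407), 836 (773 to 903) and 1092 (1028 to 1159) CPM in the selected cells and at 7.62, 7.41, 137 and 49.9 CPM in the other barcodes. Thinned to 5000 UMIs, 86.4, 74.6, 96.00 and 90.9% of selected cells held a Cd3g UMI. In barcodes with at least 3 B lineage genes, which should lack it and give the background of free RNA, the share was 1.12, 1.09, 3.61 and 3.20% at the same depth. Cd3d, which encodes the delta chain of CD3, was far lower at 14.9 (5.47 to 32.4), 31.5 (24.02 to 40.5), 47.3 (33.3 to 65.2) and 139 (117 to 165) CPM against 0.947, 0.740, 9.09 and 5.79 CPM in the others. Cd247, the zeta chain, stood at 19.9, 36.2, 39.6 and 50.5 CPM. Cd3g was found without Cd3d in 18, 79, 26 and 31 of the selected cells, and Cd3d without Cd3g in 0, 0, 0 and 2.

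The genes of Cd3g (chr9:44969572-44980431, minus strand) and Cd3d (chr9:44981786-44987339, plus strand) are read away from each other from starts 1355 bases apart, and Cd3e (chr9:44998740-45009627, minus strand) lies beside them. Their upstream sequence is shown because these neighbours stood at such unequal levels in the same cells. Each line gives the 250 bases before the gene's start in RefSeq on GRCm38.p6, read 5' to 3' on the gene's strand, at chr9:44980432-44980681 for Cd3g, chr9:44981536-44981785 for Cd3d and chr9:45009612-45009861 for Cd3e. Capitals mark matches on either strand to GATA letters (AGATAA or TTATCT) and TCF letters (CTTTGA or TCAAAG).
Cd3g: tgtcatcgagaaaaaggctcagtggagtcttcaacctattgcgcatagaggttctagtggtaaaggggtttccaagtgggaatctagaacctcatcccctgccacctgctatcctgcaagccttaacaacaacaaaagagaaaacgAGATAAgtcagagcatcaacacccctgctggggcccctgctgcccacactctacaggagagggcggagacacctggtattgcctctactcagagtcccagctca
Cd3d: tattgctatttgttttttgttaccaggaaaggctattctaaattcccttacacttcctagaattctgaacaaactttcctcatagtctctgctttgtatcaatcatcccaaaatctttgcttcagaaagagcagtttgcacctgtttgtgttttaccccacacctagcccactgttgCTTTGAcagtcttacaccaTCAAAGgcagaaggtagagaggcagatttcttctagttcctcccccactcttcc
Cd3e: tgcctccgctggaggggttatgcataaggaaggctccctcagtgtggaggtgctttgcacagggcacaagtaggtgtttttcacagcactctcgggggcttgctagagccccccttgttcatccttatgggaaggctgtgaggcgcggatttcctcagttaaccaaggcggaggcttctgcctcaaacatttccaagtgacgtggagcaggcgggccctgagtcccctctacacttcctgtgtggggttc
The Cd3g window holds 1 match to the GATA letters, the Cd3d window 2 matches to the TCF letters and the Cd3e window none. Of 32841 such windows in RefSeq, 9.99% hold the GATA letters and 13.8% the TCF letters. A match describes the letters only and is no bound site.

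Constant genes of the beta chain were abundant in the selected cells, while that of the alpha chain was near 0. Trbc1, a constant gene of the beta chain at chr6:41538218-41539881, stood at 1309.5 (1200.0 to 1426), 1390.5 (1338 to 1444), 1732 (1641 to 1827) and 1736 (1655 to 1820.2) CPM against 39.8, 26.9, 261 and 197 CPM in the other barcodes. Its neighbour Trbc2 stood at 1006, 1257, 1621 and 1832 CPM against 424, 326, 998 and 980.3 CPM, but the copies share 40.5% of the 50-base words of Trbc1 and 44.0% of those of Trbc2, so the split of reads between them is uncertain. Trac, the constant gene of the alpha chain, stood at 0 (0 to 9.17), 6.82 (3.63 to 11.7), 10.2 (4.42 to 20.2) and 24.2 (15.5 to 36.1) CPM. At 5000 UMIs a Trbc1 UMI was found in 95.5, 99.2, 98.00 and 98.5% of the selected cells, in 10.4, 6.22, 33.9 and 30.9% of the other barcodes and in 8.33, 3.996, 10.4 and 8.27% of the barcodes with at least 3 B lineage genes.

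Among gamma constant genes, Tcrg-C1 stood at 94.4, 196, 209.7 and 782 CPM and Tcrg-C2 at 7.45, 16.3, 25.6 and 199.97 CPM, and Tcrg-C3 had no UMI in a selected cell. Tcrg-C1 and Tcrg-C2 share 17.9% of the words of Tcrg-C1, so their split is uncertain too, while Tcrg-C4 shares none with the other 3. A single cell held 52.6% of the Tcrg-C1 UMIs in fetal liver at E13.5 and 52.4% in periphery at E13.5. Summed over the 12 gamma and delta V segments that the matrices list, the selected cells held 0, 1.57, 2.56 and 7.07 CPM. The segments from Tcrg-V3 to Tcrg-V7 had no UMI in a selected cell of any library, and Tcrg-V2 was not analysed here. A 3' library counts the end of a transcript, which in a rearranged gene lies in the constant gene, so a low count of V segments does not show whether a receptor was rearranged.

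Genes of receptor assembly were low. Rag1 stood at 0, 7.35, 3.84 and 6.06 CPM in the selected cells and 9.77, 28.3, 5.75 and 7.25 CPM in the others, and Rag2 at 19.9, 20.5, 0 and 17.2 and 43.5, 72.7, 6.56 and 9.54 CPM. In fetal liver both were lower in the selected cells than in the rest. Ptcra, which encodes the partner chain of the early beta chain in thymocytes, was found at 0, 0, 10.2 and 5.05 CPM, in periphery at E13.5 in 1 cell. Dntt, which adds bases at the joints of rearranged receptor genes, had no UMI in a selected cell, which at the floor of 3 UMIs allows up to 7.45, 1.57, 3.84 and 3.03 CPM.

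Genes that act below the T cell receptor were mixed. Of 14 listed genes of receptor signalling, 13 were measured (at least 10 CPM in either set) in fetal liver at E13.5 and 9 were higher past 1 log2 unit, where 5.92% of all measured genes were, and at E14.5 it was 9 of 12 measured against 5.17%. In periphery 3 of 11 measured were higher at E13.5, where 2.57% of all genes were, and 2 of 11 at E14.5 against 3.62%. Skap1, an adaptor of receptor-driven adhesion, stood at 52.2 (32.3 to 79.8), 206 (186 to 227), 194 (165 to 228) and 215 (187 to 246) CPM against 0.506, 3.24, 7.61 and 10.1 CPM in the other barcodes and was higher past 1 log2 unit in all 4 libraries. Lat, the membrane scaffold of the pathway, stood at 39.8, 117, 88.2 and 195 CPM. Lck, the kinase that starts the signal, stood at 102, 109, 98.4 and 252 CPM. The kinase gene Zap70 went the other way by tissue, with 12.4, 22.04, 16.6 and 31.3 CPM in the selected cells and 3.13, 2.38, 48.02 and 106 CPM in the others, so it was lower than in the rest of the periphery.

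Surface proteins of T cells were mixed in every library. Past 1 log2 unit, 3 of 7, 2 of 6, 3 of 7 and 4 of 9 measured genes were higher than in the other barcodes and 1, 1, 3 and 3 lower. Of all genes, 5.92, 5.17, 2.57 and 3.62% were higher, and 4.31, 3.38, 6.84 and 6.05% were lower. Cd28, the main costimulatory receptor of T cells, stood at 69.6, 80.3, 63.9 and 94.9 CPM against 21.9, 22.1, 7.98 and 5.33 CPM in the others. Thy1, a glycoprotein of T cells and innate lymphoid cells, stood at 54.7, 158, 259.5 and 303 CPM. Cd27 stood at 114, 68.2, 121 and 131 CPM. Cd5, which mature T cells carry at a level set by their receptor, was almost absent at 0, 1.57, 1.28 and 2.02 CPM. Cd7, known from T and natural killer cells, was at 53.7 and 124 CPM in the selected cells of periphery and 792 and 1063 CPM in the other barcodes there.

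Of the measured genes on the list of T cell commitment, 5 of 12, 6 of 13, 2 of 12 and 5 of 14 were higher past 1 log2 unit than in the other barcodes. In the same order, 0, 2, 1 and 0 were lower. Of all genes, 5.92, 5.17, 2.57 and 3.62% were higher and 4.31, 3.38, 6.84 and 6.05% lower. The factor gene Gata3 stood above the rest in all 4 libraries. Gata3 (chr2:9857078-9890034) was at 318 (265 to 378), 548 (516 to 583), 378 (337 to 424) and 529 (485 to 577) CPM against 21.99, 14.00, 88.3 and 145 CPM in the others, a log2 fold of 3.56, 4.85, 2.01 and 1.84 after adding 5 CPM and taking off the median of all measured genes. Tcf7, which acts early in both T cells and innate lymphoid cells, stood at 793 (708 to 885), 343 (317 to 369.9), 112 (90.2 to 139) and 173 (148 to 201) CPM against 66.9, 43.5, 235 and 335 CPM, higher than the rest in fetal liver and lower in periphery. Tox, needed by innate lymphoid progenitors and thymocytes, stood at 221, 129, 101 and 133 CPM. Hes1, a target of Notch, stood at 89.5, 96.5, 20.5 and 189.9 CPM.

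The list of 12 genes of group 2 innate lymphoid cells was carried by many selected cells. At least 3 of its genes were detected in 12 of 23, 89 of 118, 43 of 50 and 47 of 72 cells, or 52.2, 75.4, 86 and 65.3%. In the other barcodes the shares were 1.68, 4.36, 19.4 and 14.2%. At 5000 UMIs the shares were 22.7, 39, 52 and 47% against 0.381, 1.28, 8.31 and 7.55%. Of the measured genes of the list, 6 of 7, 5 of 6, 5 of 7 and 7 of 8 were higher past 1 log2 unit, against 5.92, 5.17, 2.57 and 3.62% of all genes, and 1 was lower in periphery at E14.5. The medians of the list were 2.20, 3.30, 2.06 and 1.62, where the median of all genes is 0.

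Rora (chr9:68653786-69388246), the nuclear receptor gene needed by group 2 innate lymphoid cells, stood at 408 (348 to 475), 541 (509 to 576), 418 (374 to 466) and 447 (407 to 491) CPM against 8.42, 11.7, 112 and 181 CPM in the others. Gata3 and Rora were found together in 17 of 23, 109 of 118, 45 of 50 and 56 of 72 cells. Arg1, an arginine-degrading enzyme made by fetal innate lymphoid cells, stood at 191 (151 to 239), 532 (499 to 565), 819 (757 to 885) and 816 (761 to 874) CPM against 2.70, 10.2, 169 and 356 CPM. Il17rb, which encodes a chain of the IL-25 receptor, stood at 22.4 (10.2 to 42.5), 54.6 (44.6 to 66.1), 29.4 (18.6 to 44.1) and 76.8 (60.5 to 96.1) CPM against 0.492, 0.740, 3.05 and 3.80 CPM. For each of Rora, Arg1 and Il17rb, no interval of the selected cells reached the level of the other barcodes. Il1rl1, the receptor of IL-33 that marks mature cells of this group, was low at 0, 11.5, 6.39 and 16.2 CPM.

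Type 2 cytokine RNA was present in part. Il13 stood at 24.8 (11.9 to 45.7), 75.6 (63.7 to 88.95), 311 (273 to 352) and 80.8 (64.1 to 101) CPM against 2.22, 3.42, 22.4 and 9.43 CPM in the others, and its neighbour Il4 at 22.4, 30.96, 53.7 and 51.5 CPM. Il5, the cytokine of eosinophil growth, had no UMI in any selected cell. Il13 was detected in 4, 44, 29 and 19 cells, and in 2, 23, 11 and 12 of them Il4 was detected as well. The upstream window of Il13 is shown because Il13 had the highest level of these 3 cytokine genes in each library. It holds 1 match to the GATA letters, in capitals, in the 250 bases at chr11:53634703-53634952 (minus strand, RefSeq on GRCm38.p6).
Il13: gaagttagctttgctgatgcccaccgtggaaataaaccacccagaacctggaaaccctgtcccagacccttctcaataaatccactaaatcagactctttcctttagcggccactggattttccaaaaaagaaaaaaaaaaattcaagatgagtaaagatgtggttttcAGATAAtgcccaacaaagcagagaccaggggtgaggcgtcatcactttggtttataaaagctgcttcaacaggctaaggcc

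Genes of LTi cells and of IL-17-making gamma-delta T cells stood lower in the selected cells than in the rest of the periphery. Of the LTi genes other than Cxcr5, 8 of 10 measured were lower past 1 log2 unit at E13.5 and 9 of 11 at E14.5, where 6.84 and 6.05% of all genes were. Il22, a cytokine of LTi cells, stood at 16.6 and 63.6 CPM in the selected cells of periphery and 648 and 1506 CPM in the other barcodes. Lta, the lymphotoxin alpha gene, stood at 24.3 and 26.3 against 168 and 311 CPM. Ccr6, a chemokine receptor of LTi cells and IL-17-making T cells, stood at 6.39 and 7.07 against 28.98 and 82.03 CPM and had no UMI in selected cells of fetal liver. Since the rule set Cxcr5 at 0 and many other barcodes of periphery carried Cxcr5, part of this contrast follows from the choice of cells.

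Genes known from gamma-delta T cells and from IL-17-making cells differed in level. Sox13, a factor of early gamma-delta thymocytes, was near the floor at 7.45, 7.35, 1.28 and 5.05 CPM. Il17a stood at 0, 5.25, 2.56 and 13.1 CPM and Il17f at 0, 0.525, 1.28 and 1.01 CPM, against 85.7 and 104 CPM of Il17f in the other barcodes of periphery. Blk, a kinase of IL-17-making gamma-delta T cells, stood at 2.48, 2.62, 0 and 15.1 CPM. By contrast Cd163l1, a scavenger receptor gene known from gamma-delta T cells, was high, at 32.3 (17.2 to 55.2), 126 (111 to 143), 69.03 (51.9 to 90.1) and 90.9 (73.1 to 112) CPM against 0.431, 1.34, 4.12 and 5.91 CPM, and Maf stood at 22.4, 72.4, 30.7 and 91.9 CPM.

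Of the measured cytotoxic and group 1 genes, 7 of 8, 6 of 8, 3 of 9 and 7 of 11 were higher past 1 log2 unit than in the other barcodes, and 0, 0, 3 and 2 lower. Of all genes, 5.92, 5.17, 2.57 and 3.62% were higher and 4.31, 3.38, 6.84 and 6.05% lower. At least 3 of the 16 listed genes were detected in 20 of 23, 83 of 118, 46 of 50 and 54 of 72 selected cells, against 50.8, 33.7, 77.98 and 55.9% of the other barcodes. Tbx21, the factor of group 1 cells, stood at only 9.94, 9.97, 6.39 and 11.1 CPM, Eomes at 0, 0.525, 0 and 0 CPM, and Klrb1c, the gene of the NK1.1 antigen, had no UMI in a selected cell. Ccl5, a chemokine of T and natural killer cells, was high at 676 (598 to 761), 349 (323 to 376), 903 (837 to 972) and 1178 (1111 to 1247) CPM against 22.7, 16.5, 597 and 242 CPM in the others. Klrd1, the gene of CD94, stood at 119, 121, 25.6 and 50.5 CPM. Ifng stood at 2.48 (0.0629 to 13.8), 99.7 (86.02 to 115), 179 (151 to 211) and 89.9 (72.2 to 111) CPM, from 1, 25, 10 and 7 cells. Gzma (chr13:113093825-113100981), a granule protease of killer cells, stood at 14.9 (5.47 to 32.4), 57.7 (47.4 to 69.6), 344 (304 to 388) and 1094 (1029.6 to 1161) CPM, but a single cell held 82.5% of its UMIs in periphery at E13.5, and without that cell the level there was 61.7 CPM.

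**Figure D2:**
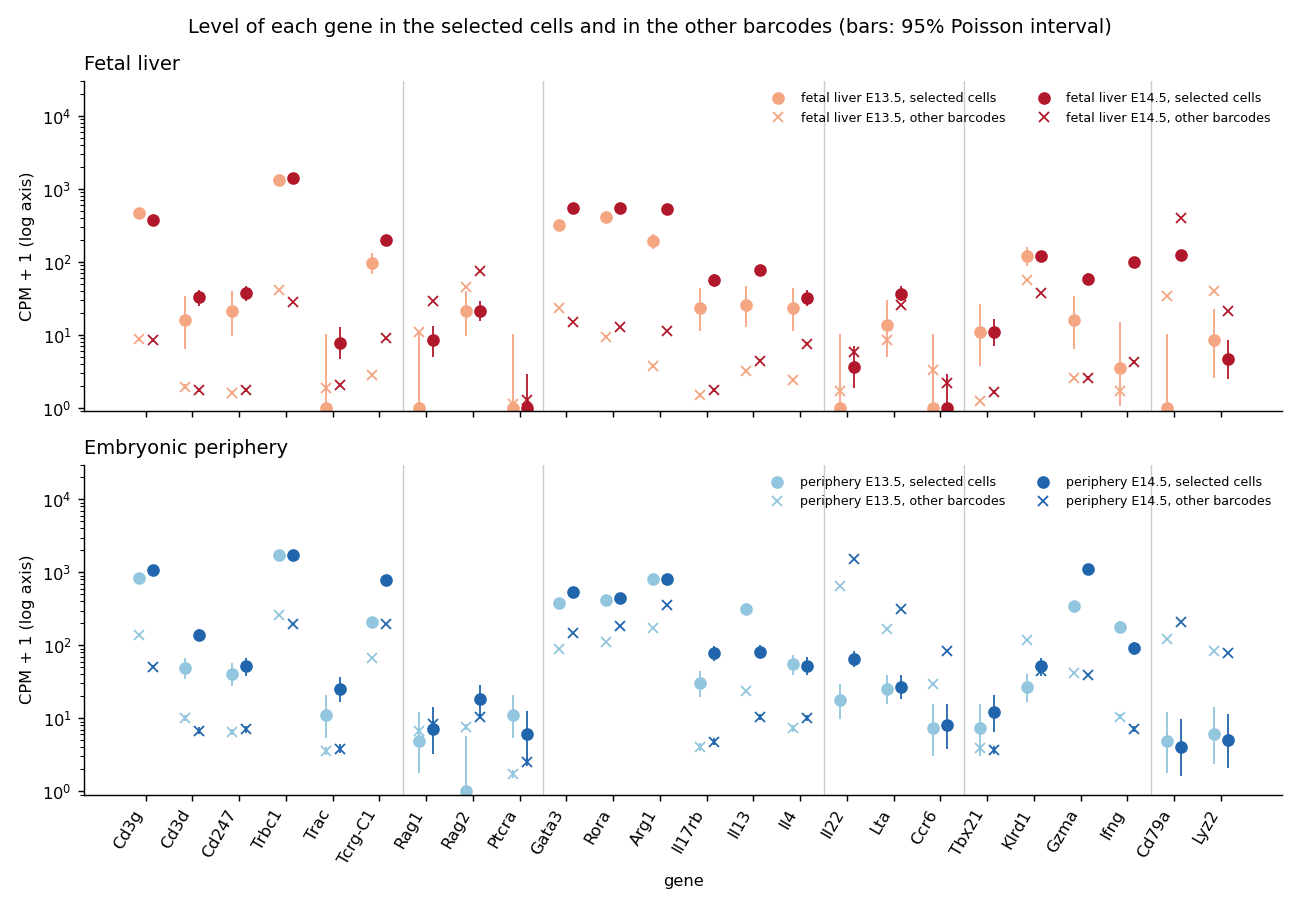
Level of named genes (x axis, grouped by grey lines) as CPM + 1 on a log axis (y axis) in selected cells (circles, with 95% Poisson intervals) and in the other barcodes (crosses), for fetal liver above and periphery below. Circles of the CD3, Trbc1, Gata3, Rora, Arg1 and Il13 columns lie above the crosses in all 4 libraries, while the Il22, Lta and Ccr6 circles of periphery lie below them.

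Genes of innate lymphoid progenitors were high in fetal liver. Zbtb16, which encodes the factor PLZF of these progenitors, stood at 199 (158 to 247), 138 (122 to 156), 105 (83.4 to 130.1) and 106 (86.7 to 128) CPM against 7.80, 6.37, 34.1 and 50.3 CPM in the others. Id2, the inhibitor of E proteins needed by all innate lymphoid cells, stood at 894, 792, 564 and 1356 CPM against 243, 94.4, 403 and 1526 CPM. Pdcd1, whose product PD-1 marks these progenitors, stood at 74.5, 47.7, 119 and 103 CPM. Il7r, whose product was sorted on, stood at 162, 148, 94.6 and 166 CPM. Of the 8 listed genes, 7, 6, 1 and 1 were higher past 1 log2 unit than in the other barcodes and 1, 0, 1 and 0 lower, and 6 of the 8 lay below 0 in periphery at E14.5. The shares of all genes higher were 5.92, 5.17, 2.57 and 3.62%, and of those lower 4.31, 3.38, 6.84 and 6.05%. The periphery values are set against barcodes that themselves carried much Id2 and Zbtb16.

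Homing and costimulatory genes of innate and adaptive lymphocytes were also found. Of the measured homing genes, 5 of 9, 6 of 10, 2 of 10 and 4 of 11 were higher past 1 log2 unit than in the other barcodes. In the same order, 2, 2, 3 and 2 were lower. Costimulatory genes were higher in 4 of 5, 4 of 5, 2 of 5 and 3 of 6 measured, and none was lower. Of all genes, 5.92, 5.17, 2.57 and 3.62% were higher and 4.31, 3.38, 6.84 and 6.05% lower. Cxcr6, a chemokine receptor of innate lymphoid cells and resident T cells, stood at 57.1, 228, 112 and 315 CPM. Cxcr3 stood at 59.6, 81.3, 71.6 and 75.7 CPM, and Ccr9, which directs cells to thymus and gut, at 152, 151, 58.8 and 57.6 CPM. Itgae, the integrin chain of lymphocytes in epithelia, stood at 9.94, 20.99, 8.95 and 10.1 CPM. Tnfrsf9, the gene of the costimulatory receptor 4-1BB, stood at 191, 139, 198 and 228 CPM against 8.59, 6.27, 117 and 75.1 CPM in the others.

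The genes highest above the rest of the library by the naming rule included others not named above. Rxrg, which encodes a retinoid X receptor, stood at 142 (107 to 184), 166 (148 to 185), 157 (131 to 188) and 161 (137 to 188) CPM against 0.7004, 1.09, 12.6 and 11.7 CPM, with log2 folds of 4.67, 4.80, 3.17 and 3.31. Ikzf2, the gene of the factor Helios, stood at 398, 284, 304 and 349 CPM against 23.4, 18.9, 85.8 and 151 CPM, with folds of 3.81, 3.58, 1.74 and 1.19. H19, an imprinted growth-linked RNA of the fetus, stood at 427, 262, 970.3 and 759 CPM against 25.7, 70.5, 108 and 80.6 CPM. Homer2, a scaffold gene, was named in fetal liver with 79.5 and 77.7 CPM against 0.980 and 3.19 CPM. In periphery the list held the imprinted genes Igf2, at 85.7 and 45.4 CPM, and Slc38a4, at 80.5 and 57.6 CPM, and Calca, which encodes the neuropeptide CGRP, at 129 and 50.5 CPM. Cck, the gene of cholecystokinin, stood at 212 and 45.4 CPM there, with 74.7 and 91.1% of its UMIs in 1 cell.

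Of all measured genes, 4.31, 3.38, 6.84 and 6.05% were lower past 1 log2 unit in the selected cells than in the other barcodes of the library, and genes of other lineages were among them. B lineage genes were lower in 6 of 6, 9 of 9, 7 of 7 and 9 of 9 measured, which follows in part from what the other barcodes were. In fetal liver they included myeloid genes such as Elane, at 0 and 2.10 CPM against 53.1 and 71.4 CPM, and Mpo, at 194 and 65.6 against 830.0 and 463 CPM. In periphery they included Il22 as given above, the antigen presentation gene Cd74, at 30.7 and 26.3 against 562 and 678 CPM, and the B lineage gene Igll1, at 5.11 and 8.08 against 156 and 356 CPM.

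Markers of other cell types were looked at in full. The 9 B lineage genes summed to 42.2, 886, 52.4 and 74.7 CPM in the selected cells and 297, 2876, 895 and 1564 CPM in the others. At least 3 of them were detected in 0 of 23, 23 of 118, 0 of 50 and 1 of 72 selected cells, and the part of these cells in the fetal liver results was measured by leaving them out. The 11 myeloid genes summed to 805, 383, 461 and 413 CPM against 1649, 1104, 1249 and 872 CPM. The 6 mast cell and basophil genes summed to 350.3, 329.5, 184 and 202 CPM against 57.7, 297, 217 and 382 CPM. The 8 erythroid genes summed to 52.2, 3.67, 53.7 and 141 CPM, against 10.8 and 6.28 CPM in the others of fetal liver. Past 1 log2 unit, 2 of 2 measured erythroid genes were higher in fetal liver at E13.5. In periphery 0 of 6 were higher and 4 lower at E13.5, and 1 of 2 was higher at E14.5. The myeloid genes C1qa and C1qb had no UMI at E13.5 in fetal liver, and the mast cell genes Fcer1a and Ms4a2 none at E13.5 in either tissue. At least 3 myeloid genes were detected in 10 of 23, 9 of 118, 9 of 50 and 6 of 72 selected cells. In each library that was a smaller share than in the other barcodes. At least 2 mast cell and basophil genes were detected in 1, 7, 1 and 5 selected cells. These were 4.35, 5.93, 2 and 6.94%, against 2.04, 8.29, 1.83 and 2.98% of the other barcodes. Doublet scoring marked 1 of 23, 16 of 118, 1 of 50 and 2 of 72 selected cells, which were kept because the rule names no doublets. Of all barcodes that passed, it marked 3.55, 7.98, 3.25 and 3.35%, so selected cells of fetal liver at E14.5 were marked more often. What these markers add to single results was not tested beyond that.

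The selected cells were not alike. They were split by which of Cd3e and Trdc were detected, a description since both are rule genes. Both were found in 1, 10, 4 and 14 cells, Cd3e alone in 4, 23, 12 and 14, Trdc alone in 10, 25, 8 and 11, and neither in 8, 60, 26 and 33. In periphery at E14.5 the 14 cells with both stood apart from the 33 with neither. Cd3g stood at 2266 CPM with both and 669 CPM with neither, Tcrg-C2 at 711 and 0 CPM, and Gzma at 3842 and 4.96 CPM. Il2ra, the IL-2 receptor chain that early thymocytes carry, stood at 183 and 7.43 CPM, the Notch target Dtx1 at 71.1 and 2.48 CPM, and Rag2 at 59.9 and 0 CPM. Genes of innate lymphoid cells went the other way. Id2 stood at 195 and 2092 CPM, Rora at 131 and 617 CPM, Gata3 at 277 and 729 CPM, and Rxrg at 37.4 and 263 CPM.

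Within the 14 cells, all Gzma UMIs came from 8 cells and all Rora and Rxrg UMIs from the other 6. In the 7 cells of periphery at E14.5 with Bcl11b, Cd3e and Trdc but neither Tcrg-C4 nor Icos, Gzma was counted at 16, 72, 121, 128, 139, 159 and 238 UMIs, and Cd3g at 23 to 132 UMIs. Each of these 7 cells held 21129 to 31184 UMIs in all, 0 of Rora, 1 to 4 of Rag2 and at most 2 of Id2. A further cell of the same library, with all 5 markers and 28423 UMIs, held 153 Gzma, 63 Cd3g and no Rora or Id2 UMIs. These 8 cells were singled out after their values had been seen, so they are named by their genes and get no cell type name. In periphery at E13.5, 1 cell with the same 3 markers held 222 Gzma, 83 Cd3g and 8 Ptcra UMIs and no Rora UMI. The 2 fetal liver cells with the same 3 markers had 0 and 1 Gzma UMI.

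**Figure D3:**
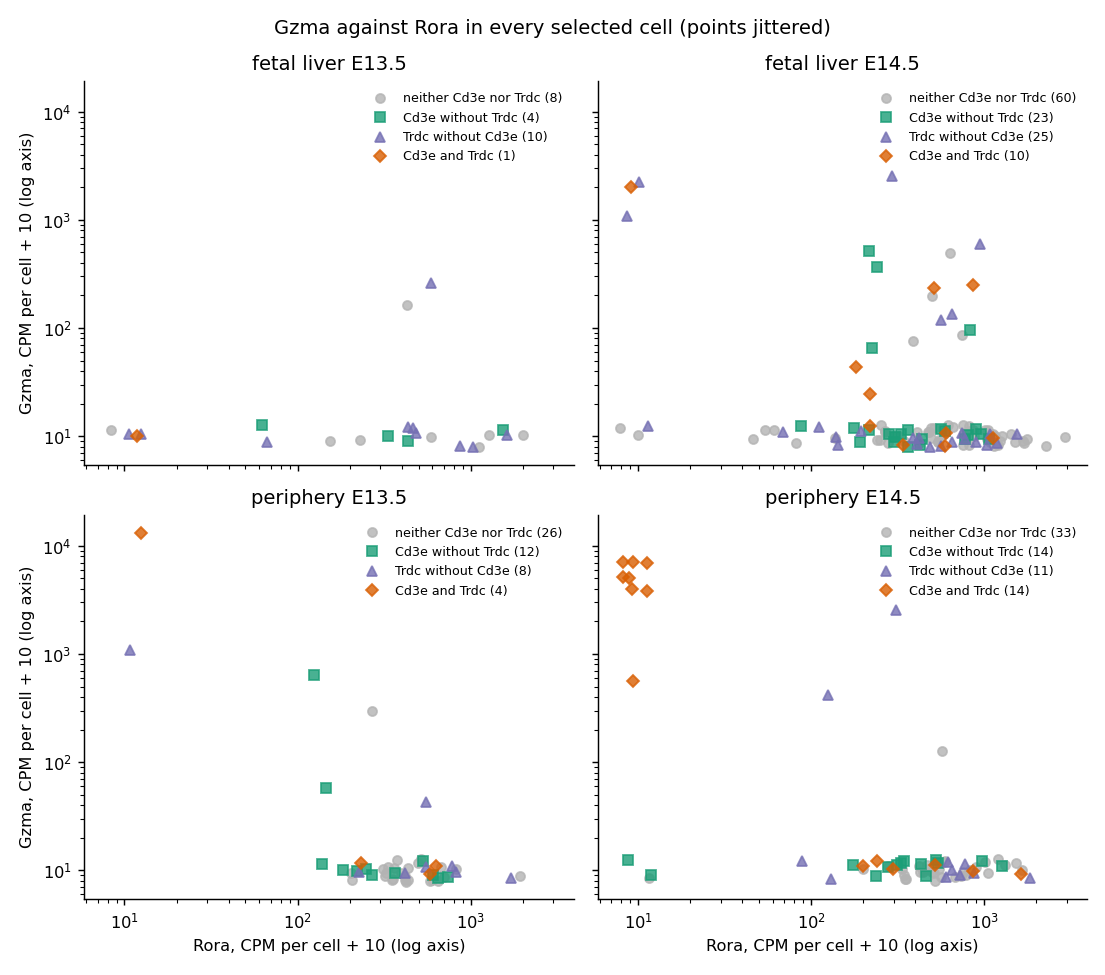
Gzma (y axis) against Rora (x axis) in each selected cell, both as CPM per cell + 10 on log axes with jittered points, in 4 panels by library and marked by whether Cd3e and Trdc were detected. In periphery at E14.5, 8 cells with both Cd3e and Trdc lie at the upper left with no Rora UMI, away from most other selected cells, which lie at the lower right.

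In periphery at E14.5 the cells with neither Cd3e nor Trdc carried more of the innate lymphoid genes, with Arg1 at 1192 CPM against 382 CPM in the cells with both and Zbtb16 at 144 against 37.4 CPM. In fetal liver at E14.5 the 10 cells with both markers were closer to the rest, with Id2 at 805 CPM, Rora at 399.6 CPM, Gata3 at 339 CPM and Gzma at 115 CPM. Whether the tissues differ in this cannot be told apart from the kit.

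Barcodes with both Zbtb16 and Tcf7, 2 genes used by innate lymphoid progenitors, share genes such as Gata3 with the selected cells and were compared with them. In periphery they made up 23.0 and 26.6% of the barcodes that passed. Their Cxcr5 level was 33.9, 37.0, 108 and 155 CPM, so the set also held cells with this LTi gene and is no pure progenitor set. Of all measured genes, 3.32, 2.04, 2.3 and 3.71% were higher past 1 log2 unit in the selected cells, and 2.8, 1.93, 6.4 and 5.5% were lower. The 3 CD3 genes were higher in the selected cells in 2, 3, 3 and 3 cases, and the measured group 2 genes in 5 of 7, 5 of 6, 5 of 7 and 6 of 8. Cd3g was higher by a log2 fold of 2.48, 1.87, 1.65 and 3.55 and Rxrg by 3.24, 2.86, 2.09 and 2.51. Il13 stood at 1.89, 6.76, 12.2 and 2.58 CPM in those barcodes, giving folds of 2.11, 2.78, 4.16 and 3.51. Lta was lower in the selected cells in all 4 libraries, with folds of -1.01, -1.50, -2.71 and -3.47. Since the rule set Cxcr5 at 0 in the selected cells only, part of this contrast can follow from the choice of cells. Tcf7 and Zbtb16 chose those barcodes, so their folds of 0.15, -0.97, -1.78 and -1.35 for Tcf7 and 0.74, 0.31, -0.28 and -0.50 for Zbtb16 are a description.

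Just outside the rule, the barcodes with exactly 2 markers were lower in Gata3 and Trbc1 than the selected cells and higher than the rest in all 4 libraries. In those barcodes Gata3 stood at 227, 265, 215 and 304 CPM and Trbc1 at 899.9, 712, 1463 and 1309.7 CPM. Rora stood at 305, 267, 296 and 468 CPM and Arg1 at 114, 314, 518 and 1156 CPM, both above the selected cells in periphery at E14.5. Gzma stood in periphery at 587 and 438 CPM, above the 344 CPM of the selected cells at E13.5 and below their 1094 CPM at E14.5.

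Between E13.5 and E14.5 the selected cells of fetal liver differed in several gene groups. Of 8217 measured genes, 362 (4.41%) were higher and 341 (4.15%) lower past 1 log2 unit at E14.5. The E13.5 level rests on 23 cells, where 1 UMI equals 2.48 CPM. The highest gene group was that of early B cells, with 9 of 9 genes higher. Igll1, which encodes part of the surrogate light chain, stood at 2.48 and 193 CPM, a log2 fold of 4.73 (3.39 to 5.32) from 1 UMI at E13.5. Cd79a, a chain of the B cell receptor, had no UMI at E13.5 and 124 CPM at E14.5, at least 16.6-fold higher, and Vpreb3 was at least 16.96-fold higher. The other barcodes of fetal liver moved the same way, with 9 of 9 genes higher and a median of 3.16 against 3.36 in the selected cells. Without the 23 selected cells of E14.5 that held 3 or more B lineage genes, the folds were 1.02 for Igll1 and 1.07 for Vpreb3, Cd79a had 0 and 2 UMIs, and 401 genes were higher and 426 lower.

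Lists of innate lymphoid genes were mixed between the stages of fetal liver. Past the fold, 4 of 8 measured group 2 genes were higher and 2 lower, and 2 of 9 cytotoxic and group 1 genes were higher and 3 lower. Of the 8 genes of innate lymphoid progenitors none was higher past the fold and 1 was lower, with a median of -0.54. Single genes of effector function were higher. Ifng stood at 2.48 and 99.7 CPM, a fold of 3.81 (2.47 to 4.41) from 1 UMI at E13.5, against 0.56 in the other barcodes. Skap1 was higher by 1.89 (1.30 to 2.52), against 0.61 in the others, and Cd163l1 by 1.83 (1.11 to 2.59), against 0.25. Arg1 was higher by 1.46 (1.13 to 1.80) and Il13 by 1.44 (0.64 to 2.29), and Cxcr6 by 1.91 (1.35 to 2.52). Cxcl10, a chemokine that interferon induces, was at 7.45 and 216 CPM, with 54.3% of the E14.5 UMIs in 1 cell. Pxdc1 stood at 4.97 and 101 CPM, from 2 UMIs at E13.5, with a fold of 3.42 (2.20 to 4.28). Prss34, a basophil protease gene, rested on 1 cell with 90.6% of its UMIs.

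Progenitor genes were lower at E14.5 in fetal liver. Cd34, a surface marker of progenitors, stood at 199 (158 to 247) and 29.9 (22.7 to 38.7) CPM, a fold of -2.54 (-2.99 to -2.08). Flt3, the receptor kinase of lymphoid progenitors, stood at 86.97 and 15.7 CPM, a fold of -2.14 (-2.75 to -1.51), and Kit at 104 and 29.9 CPM. Tcf7 had a fold of -1.19 (-1.38 to -0.99). Fcgr3, an Fc receptor gene, had a fold of -2.51 (-3.05 to -1.95) against 0.45 in the other barcodes, and Perp, a gene of cell adhesion and death, one of -2.28 (-2.81 to -1.73). Of the listed stem and progenitor genes, 4 of 7 measured were lower past the fold and 1 higher, with a median of -1.64. Prss2 had no UMI at E14.5 and was at least 25.3-fold lower, but 1 cell held 87.5% of its UMIs at E13.5, and Lmo2 had 58.8% in 1 cell. With at least 4 markers, from 6 and 35 cells, Flt3, Adgrl4 and Lmo2 reversed to folds of 1.95, 1.42 and 1.80.

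In the selected cells of periphery, genes of the T cell receptor complex and of Notch signalling were among those higher at E14.5, and cytokine genes among those lower. Of 7255 measured genes, 279 (3.85%) were higher and 156 (2.15%) lower past 1 log2 unit at E14.5, with 479 and 101 without taking off the median of 0.20. Listed genes of T cell commitment held 5 of 14 measured above the fold, and none below. Hes1 stood at 20.5 (11.7 to 33.2) and 189.9 (164 to 219) CPM, a fold of 2.74 (2.11 to 3.38), and Myb at 10.2 and 51.5 CPM. Tcrg-C1 stood at 209.7 (179 to 244) and 782 (728 to 839) CPM, and Tcrg-C2 at 25.6 and 199.97 CPM, a fold of 2.55 (1.97 to 3.15) with 95% of the E13.5 UMIs in 1 cell. Khdc1a stood at 1.28 and 73.7 CPM, from 1 UMI at E13.5, and Il2ra at 7.67 and 53.5 CPM. The receptor gene Notch1 had a fold of 1.14 (0.25 to 1.97) and Gzma one of 1.46 (1.26 to 1.65). For Gzma and for Tcrg-C1, a single cell held most of the E13.5 UMIs, as given above. Without the cells that held both Cd3e and Trdc, Khdc1a had no UMI at either stage, Notch1 had 5 and 3 UMIs (a fold of -0.61), and the folds were 0.22 for Il2ra, 0.02 for Gzma and 1.12 for Tcrg-C2. The Hes1 fold was 2.56 without them.

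Some cytokine genes were lower at E14.5 in periphery and others were not: Il22 stood at 16.6 and 63.6 CPM and Il4 at 53.7 and 51.5 CPM. Of 10 measured genes on the early response list, 1 was lower past the fold, Hspa1a, and none higher, with a median of -0.23. Il3, a cytokine of mast cells and activated T cells, stood at 95.9 and 1.01 CPM, a fold of -4.27 (-4.67 to -3.38) to 1 UMI at E14.5, with 12 cells at E13.5. Areg, which encodes amphiregulin, stood at 194 (165 to 228) and 15.1 (8.48 to 24.99) CPM, a fold of -3.51 (-4.13 to -2.89) against -1.43 in the other barcodes. Il13 stood at 311 and 80.8 CPM, a fold of -2.08 (-2.44 to -1.73). Crem, an early response gene outside that list, had a fold of -2.90 (-3.41 to -2.40). Hspa1a, a heat shock gene with no UMI at E14.5, was at least 12.7-fold lower. For Crem the other barcodes moved by -2.57, and for Gstp1, which stood at -3.20 (-3.90 to -2.45) in the selected cells, by -2.83, so the shift was not limited to the selected cells. The ribosomal gene Rps28, higher by 2.77 (2.60 to 2.95), likewise had 2.66 in the others.

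**Figure D4:**
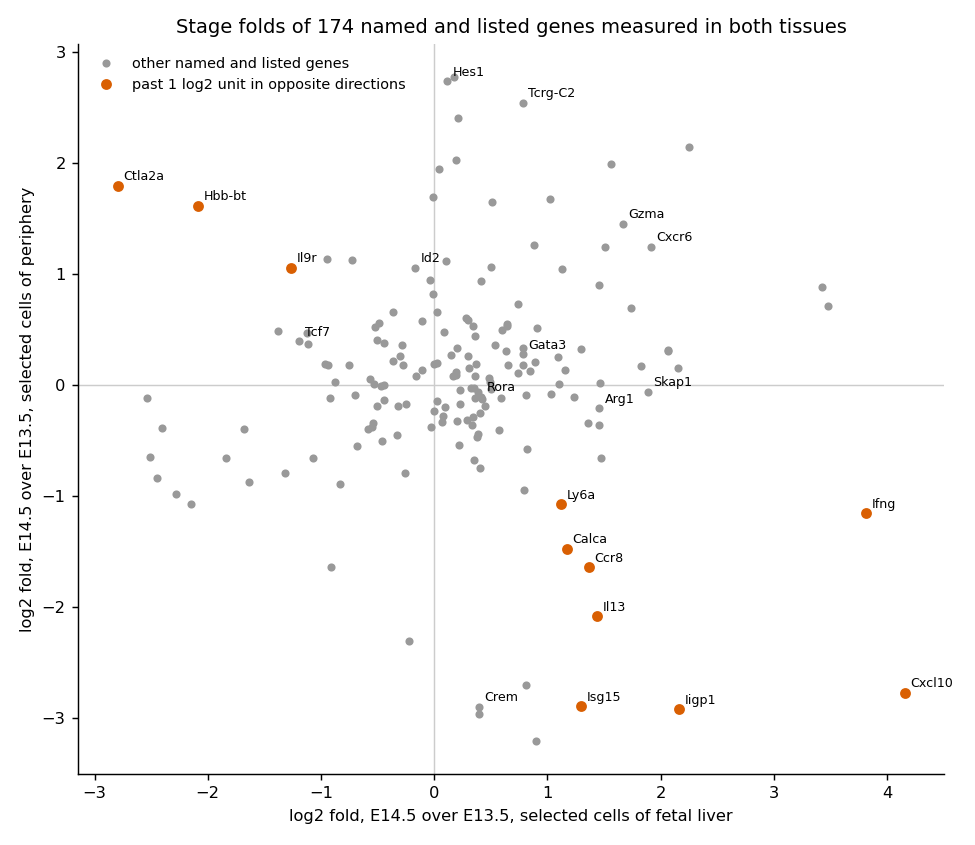
Log2 fold from E13.5 to E14.5 in selected cells of fetal liver (x axis) against the same in selected cells of periphery (y axis), for 174 named and listed genes measured in both tissues. The 11 orange points lie past 1 log2 unit in opposite directions, with Ifng, Il13 and Cxcl10 at the lower right.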

How the data were processed

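Sorted cells of 4 libraries, 1 per tissue and stage, were analysed. The deposited matrices hold raw UMI counts per gene and barcode, which the authors made with Cell Ranger 3 on mm10 per the submitters' processing notes, and with versions 3.0.0 (fetal liver) and 3.0.1 (periphery) per the file headers. They list 31053 genes for fetal liver and 28427 for periphery, and how barcodes were chosen for deposit is not given in the sources used here.

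Barcodes with 500 genes or more and no more than 10% of UMIs from mitochondrial genes were kept: 10641, 11702, 4305 and 4505 of 10783, 12090, 4531 and 5008. The members and gene lists were chosen with earlier results of these data known. Levels are CPM of summed UMIs with exact Poisson intervals at 95%, and shares have exact Clopper-Pearson intervals. Molecules of 1 library are not biological replicates, so both cover counting error only. Genes counted as measured where either group reached 10 CPM. Both sides had 5 CPM added before the log2 fold, which understates folds of low genes, minus the median of measured genes, and 1 log2 unit is a limit of size, not a test. A group at 0 was set to 3 UMIs over the group for a lower bound. Cells were thinned to 5000 UMIs with seed 1. Doublets were scored with Scrublet in scanpy 1.11.5 at an expected 0.8% per 1000 barcodes and kept unless stated. The calculation was tested on simulated Poisson counts, with a smaller pseudocount than the 5 CPM used here and no spread between cells, so these reported settings were not tested. Python 3.11.15, numpy 2.4.6, scipy 1.17.1, pandas 2.3.3 and matplotlib 3.10.9 were used.

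Named genes were those of the 26 lists, the 10 highest and 10 lowest of each stage comparison at 30 CPM or more in either group, and, against the other barcodes of each tissue, the 15 highest by the smaller and the 10 lowest by the larger of both stages' folds. Alternatives covered the number of markers, the Cxcr5 condition, gene and mitochondrial limits, doublets, depth, pseudocount, minimum level, scaling and the weight of cells, and leaving out cells with both Cd3e and Trdc or with B lineage genes was chosen after seeing the data. A single gene of the lists is not reported here by its own values.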

Additional observations from a re-analysis of the deposited data

Results flagged for a closer look

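Among the named and listed genes, 11 lay past 1 log2 unit between stages in opposite directions in the selected cells of the 2 tissues. With 1 library per group the difference was not tested, and tissue and kit cannot be told apart. Of these, 8 were higher at E14.5 in fetal liver and lower in periphery. Ifng had log2 folds of 3.81 and -1.16, Il13 of 1.44 and -2.08, and Calca of 1.17 and -1.47. Ccr8, a chemokine receptor gene of type 2 cells, had folds of 1.37 and -1.64.

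Another 4 genes went the same way, each with over 50% of the UMIs of 1 group in 1 cell, and no list of genes like them was fixed. Cxcl10 had folds of 4.16 and -2.77, with 54.3% of its fetal liver E14.5 UMIs in 1 cell. Isg15 had folds of 1.30 and -2.89, with 56.8% of the E14.5 fetal liver UMIs in 1 cell. Iigp1 had folds of 2.16 and -2.92, with 59.3% of the periphery E13.5 UMIs in 1 cell. Ly6a, a stem cell antigen gene, had folds of 1.12 and -1.07, with 71.1% of the periphery E13.5 UMIs in 1 cell, and without cells that held both Cd3e and Trdc its periphery fold was 0.26.

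The other 3 were lower at E14.5 in fetal liver and higher in periphery. Ctla2a, a protease inhibitor gene, had folds of -2.80 and 1.80, and Il9r, the receptor of IL-9, of -1.26 and 1.06. With at least 4 markers the Ctla2a fold of fetal liver was 2.55. The globin gene Hbb-bt had folds of -2.09 and 1.62, with 83.3, 83.3, 96 and 30.6% of its UMIs in 1 cell of each library. Without cells that held both Cd3e and Trdc, its periphery fold was -2.58.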

How the results depend on the processing

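The selected share moved with the rule: with at least 4 markers it was 0.0564, 0.299, 0.348 and 0.488%, with at least 2 markers 0.526, 1.79, 2.93 and 3.17%, and after thinning 0.0878, 0.549, 0.629 and 0.944%. Between stages in fetal liver, 571 genes were lower with a pseudocount of 1 CPM, 578 with no minimum level and 547 with the mean of per-cell CPM. A minimum of 30 CPM gave 161 higher and 142 lower, and cells with at least 4 markers 1414 and 1398, from 6 and 35 cells. The split of 51.5% higher became 41.7% with no minimum. In periphery a pseudocount of 1 CPM gave 512 higher and 278 lower, no minimum 279 lower, 30 CPM 147 and 72, no centring 479 and 101, the per-cell mean 443 higher and at least 4 markers 791 and 642. There the split of 64.1% higher became 53.8% with no minimum and 82.6% with no centring.

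Against the other barcodes, 30 CPM gave 257 and 166, 268 and 157, 113 and 244, and 162 and 270 genes higher and lower in the 4 libraries. At least 4 markers gave 1386 and 1468 in fetal liver at E13.5, 475 lower there at E14.5, 431 and 718 in periphery at E13.5 and 701 lower there at E14.5. The per-cell mean gave 740 and 583 in fetal liver at E13.5, leaving out doublets 425 lower there at E14.5, and a pseudocount of 1 CPM 290 higher in periphery at E13.5. With trimmed mean scaling, 404 genes were higher and 459 lower in fetal liver at E13.5, a split of 46.8% against 57.9%.

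Single genes reversed between stages in fetal liver only with at least 4 markers: Ctla2a 2.55, Lmo2 1.80, Mpo 2.05, Flt3 1.95 and Adgrl4 1.42. In periphery they reversed only without cells that held both Cd3e and Trdc: Akr1c12 -0.77, Notch1 -0.61, Hbb-bt -2.58 and Ly6a 0.26. Against the other barcodes, at least 4 markers reversed Tcrg-C1 to -0.58 in fetal liver at E13.5, Gzma to -1.94 in periphery at E13.5 and Cck to -0.87 there at E14.5. The cause was not tested, and both alternatives left fewer cells. Of the values that genes past the fold took under the alternatives, 3 of 1000 changed sign against the other barcodes, 5 of 660 between stages in fetal liver and 4 of 461 in periphery. Another 213, 74 and 51 of these values left the counting interval of the main fold. The genes were named or kept for large folds in these same data, so a change of sign was unlikely from the outset. No fold was taken where both groups held 3 UMIs or fewer, as for 14 genes in fetal liver with at least 4 markers and 6 in periphery without cells with both Cd3e and Trdc. No paired analysis was possible because each group is 1 library. In fetal liver at E13.5, where 1 UMI is 2.48 CPM, a gene with no UMI could stand at up to 7.45 CPM.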

Other observations

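Growth and fetal genes described the selected cells further. The 18 listed genes of S phase summed to 2435, 3744, 2705 and 3492 CPM against 3309.7, 3737, 2294 and 2844 CPM in the other barcodes, and the 18 of G2/M phase to 5089, 5249.6, 3533 and 4073 CPM against 4321, 4403, 2697 and 3285 CPM. None of either list lay past 1 log2 unit between selected cells and the rest in any library. Mki67, a proliferation marker, stood at 204, 263, 118 and 156 CPM, and Rrm2, a subunit of the enzyme that makes DNA building blocks, at 196, 440.2, 261 and 330.2 CPM. Between stages in fetal liver, 3 of the 18 S phase genes were higher past 1 log2 unit, where 4.41% of all genes were.

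The 7 genes of the fetal program summed to 1158, 686, 1181 and 1028 CPM against 1125, 828, 334 and 268 CPM. Of those measured, 1 of 7, 1 of 7, 1 of 5 and 2 of 6 were higher past 1 log2 unit and 0, 1, 0 and 0 lower. Of all genes, 5.92, 5.17, 2.57 and 3.62% were higher and 4.31, 3.38, 6.84 and 6.05% lower. The medians of the list were -0.11, -0.22, 0.18 and 0.37. The higher sums in periphery thus rest on few genes, above all H19 with the levels given above. Igf2bp3, an RNA-binding protein gene of the fetus, stood at 144, 115, 53.7 and 75.7 CPM against 154, 123, 69.5 and 71.2 CPM. Hmga2, a chromatin protein gene of fetal stem cells, stood at 343, 155, 56.2 and 85.8 CPM against 656, 419, 47.9 and 9.89 CPM, so it was below the rest in fetal liver and above it in periphery at E14.5. Cpa3, a protease gene of mast cells that fetal progenitors also transcribe, stood at 335, 245, 183 and 192 CPM against 36.6, 134, 103 and 118 CPM, while the mast cell genes Fcer1a and Ms4a2 stood at 0, 1.57, 0 and 0 and at 0, 12.6, 0 and 0 CPM in the selected cells.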
